A study of Mus musculus with 16 samples.

Results

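The 10 genes described here encode lysosomal proteins: the cathepsins Ctsa, Ctsb, Ctsc, Ctsd, Ctsl, Ctss and Ctsz, the asparaginyl endopeptidase Lgmn, and the membrane glycoproteins Cd68 and Lamp1. They were chosen by name, with earlier results of these data known, out of 32285 genes listed in any of the 11 matrices analysed. All 10 are listed in each of the 11. The study followed CD8+ T cells in mouse kidney allografts that are accepted without immunosuppression (DBA/2J donor kidney in a C57BL/6J, or B6, recipient) at 1, 3 and 24 weeks after transplantation, in the spleens of those recipients, in rejecting grafts of the reverse combination (B6 kidney in a DBA/2J recipient) at 1 week with the recipients' spleens, and in naive spleen. Viable CD45+ cells were sorted and run as droplet single-cell RNA sequencing, which counts each captured transcript once by its unique molecular identifier (UMI). Of the 11 matrices, 9 hold the cells that the authors named CD8 T cells and 2 hold all sorted cells, from rejecting kidney and from naive spleen.

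The labels give the strain C57BL/6J and the genotype WT for every sample, with no transgene or deletion in any group, and the recipient strain of the rejecting combination, DBA/2J, is known only from the study's paper. Rejecting and accepted samples therefore differ in recipient strain and donor strain as well as in outcome, which cannot be told apart here. Each library carries its own barcode tag, and these tags were used as the replicates: 3 libraries each for accepted kidney and spleen at 1 and at 24 weeks, 5 each at 3 weeks, 2 for rejecting kidney, 3 for rejecting spleen and 5 for naive spleen. For the accepted groups the tag numbers equal the replicate numbers that the study gives by time point, but no label says that each tag is a mouse, so the p-values below measure the spread between libraries.

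Lysosomal proteases are made as inactive precursors, sorted to the acidic lysosome and activated there by cleavage. In macrophages and dendritic cells they digest engulfed material and prepare peptides and the invariant chain for antigen presentation on MHC class II, and in cytotoxic lymphocytes the secretory granules that hold granzymes and perforin are a specialised kind of lysosome. Transcription factors of the TFEB, TFE3 and MITF family drive many lysosomal genes through a promoter element with the core CACGTG.

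RefSeq promoter windows (GRCm38.p6, 250 bases before to 50 bases after a transcript's start) were found for 9 of the 10 members and not for Ctsb. The core CACGTG (both strands, a palindrome) lay in the windows of 5 members, Ctsa, Ctsd, Ctsl, Lgmn and Lamp1, and in 7.15% of all 32851 windows. A member was counted if any of its windows held a match, while the percentage is over single windows. Ctsa and Lgmn each had 2 windows, with the core in 1 of them. In both genes that window lay inside the annotated gene span, and the window over the annotated start of the gene did not hold the core. The Ctsl window also lay inside its gene span. Only the windows of Ctsd and Lamp1 thus held the core and covered the annotated start of the gene. The longer TCACGTGA, which contains the core, lay in windows of Ctsa and Ctsd and in 0.974% of all windows. The letters GAAA followed by GAAA with any 2 bases between them, as in an interferon response element (both strands), lay in the windows of Ctss and Lamp1 and in 3.44% of all. The stretches below were picked to show these matches, with the matched letters in capitals. Those of Ctsa and Ctsd are shorter because bases just before the start overlap an annotated exon. Positions count from the start base as 0. A match describes these letters only and does not show that a factor binds there.
Lamp1, chr8:13159041-13159160, plus strand: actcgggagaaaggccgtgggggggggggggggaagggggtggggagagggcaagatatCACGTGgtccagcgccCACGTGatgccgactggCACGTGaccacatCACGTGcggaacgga
Ctss, chr3:95526666-95526785, plus strand: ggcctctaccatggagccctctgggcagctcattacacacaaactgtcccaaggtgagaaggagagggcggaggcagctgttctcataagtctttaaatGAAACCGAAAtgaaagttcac
Ctsa, chr2:164833757-164833786, plus strand: ctgtCACGTGatgcagatgctCACGTGacc
Ctsd, chr7:142387908-142387937, minus strand: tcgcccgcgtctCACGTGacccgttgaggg
The Lamp1 stretch held 4 copies of the core, which began at positions -61, -45, -28 and -15, and the Ctss match began at -21. Ctsa had copies at -12 and 5 in one of its windows, and Ctsd at -245 and -98. Lgmn had 1 copy at -49 and Ctsl 1 at -236. In the GENCODE annotation of GRCm38, Lamp1 spans chr8:13159161-13175338 and Ctss chr3:95526786-95556403 on the plus strand, Ctsa chr2:164832873-164841032, Ctsb chr14:63122462-63145923 and Ctsc chr7:88278085-88310888 on the plus strand, and Ctsd chr7:142375911-142388038, Ctsl chr13:64359337-64370890, Ctsz chr2:174427493-174439039, Lgmn chr12:102394084-102439813 and Cd68 chr11:69664213-69666153 on the minus strand.

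Several facts of the matrices touch the values below. CD8 libraries held between 153266 UMIs (a rejecting spleen library of 56 cells) and 25960721 UMIs, and the all-cell libraries between 13437087 and 37016197. Outside rejecting spleen, not every cell of a CD8 matrix showed a Cd8a or Cd8b1 UMI: the share was 83.5 to 90.1% in accepted kidney at 1 week, 96.3 to 97.0% at 3 weeks and 95.0 to 97.6% in naive spleen, but 41.9 to 49.2% and 44.0 to 51.8% in recipient spleen at 1 and 3 weeks. It was 76.6 to 78.1% in rejecting kidney and 100% in rejecting spleen. At 24 weeks the shares went against the labels' tissues, at 46.2 to 49.2% in the libraries labelled kidney and 93.4 to 95.3% in those labelled spleen. The summed level of 10 kidney parenchyma genes, in UMIs per 1000000 UMIs of the library (CPM), did so too, at 0.161 to 0.361 CPM with 1 to 2 of the 10 genes above 0 in the libraries labelled 24-week kidney, and 4.48 to 5.37 CPM with 6 of the 10 above 0 in those labelled 24-week spleen. Directions at 24 weeks are therefore given as those of the labels. Cells with a Cd4 UMI and no Cd8a or Cd8b1 UMI made up 0% of both rejecting matrices. Their share was 1.95 to 3.31% in accepted kidney and 10.0 to 13.5% in recipient spleen at 1 week. It was 0.222 to 0.444% and 17.4 to 23.0% at 3 weeks, and 18.7 to 22.7% and 0.237 to 0.644% under the 24-week kidney and spleen labels. Rejecting and accepted matrices thus differ in the cells they hold. CD8 libraries of different groups shared at most 1.79% of the cell barcodes of the smaller library. The all-cell matrices of rejecting kidney and naive spleen carry the same library tags as the CD8 matrices of those tissues. Their results are therefore not independent of each other.

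Among the named cell classes of the rejecting kidney, 9 of the 10 members were at their highest mean level in monocyte- and macrophage-like cells, a class of 6819 cells that made up 52.7 to 60.6% of each library. The share of all genes that are highest in that class was not counted. Cells were clustered without the members or any other listed lysosomal gene, and clusters were named from marker genes. CPM values are sums over the cells of a class in 1 library divided by all UMIs of those cells, so more cells with a transcript and more transcript per cell cannot be told apart in them. Ctss, a cysteine protease that trims the invariant chain in antigen-presenting cells, was at 6497 and 7195 CPM in the monocyte- and macrophage-like cells of the 2 libraries, at 2790 and 2839 in the 419 dendritic cell-like cells, at 1137 and 2085 in the 106 B cell-like cells and at 371 and 457 in the 2760 T cell-like cells. Those 4 ranges did not overlap. Ctsc, a dipeptidyl peptidase that activates granzymes and other granule serine proteases, was at 1421 and 1936 CPM in monocyte- and macrophage-like cells against 153 and 177 in T cell-like cells. Ctsb, a cysteine protease with both endo- and exopeptidase activity, was at 1313 and 2015 against 274 and 297. The B cell-like cells of this tissue also held the macrophage gene Lyz2 at 1111 ± 571 CPM (SD, n = 2) and the T cell gene Cd3e at 473 ± 82.0. Their sums thus include transcripts of genes of other lineages, whose source was not tested.

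All of the other members except Ctsd were also lower in T cell-like than in monocyte- and macrophage-like cells, with no overlap between the libraries. Each class has 2 libraries here, and the share of all genes that do the same was not counted. Ctsz, a carboxypeptidase, had a mean of 793 ± 131 CPM in monocyte- and macrophage-like cells and 62.9 ± 23.7 in T cell-like cells (SD, n = 2). Lgmn, which cleaves after asparagine and processes other cathepsins, was at 146 and 289 CPM against 9.32 and 13.04, with both myeloid values above the dendritic cell-like cells (44.4 and 45.8). The macrophage marker glycoprotein Cd68 was at 213 ± 28.2 against 15.8 ± 2.47, Lamp1, the major glycoprotein of the lysosomal membrane, at 744 ± 46.3 against 111 ± 2.44, and the serine carboxypeptidase Ctsa at 262 ± 0.920 against 107 ± 5.35. Ctsd, the main aspartic protease of lysosomes, stood apart: its 350.6 and 409.1 CPM in monocyte- and macrophage-like cells overlapped its 320.1 and 392.9 in T cell-like cells, and both classes lay above the dendritic cell-like cells at 59.9 and 106. Ctsl, a cysteine endopeptidase, differed in another way: its highest mean, 159 ± 64.1 CPM, was in dendritic cell-like cells, a range that overlapped that of the monocyte- and macrophage-like cells (81.4 and 130). Within the dendritic cell-like class the 93 plasmacytoid cells carried this signal, with 608 CPM of Ctsl against 18.9 CPM in the other 326 cells, each summed over both libraries.

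Within the myeloid class of the rejecting kidney the levels also spread, given here as sums over both libraries with no error. Ctss ran from 3627 CPM in the S100a8- and Vcan-high monocyte-like cluster (677 cells) to 8937 CPM in the macrophage-like cluster led by C1qa, C1qb and Ms4a7 (1240 cells). Ctsb and Ctsd were at their highest, 2661 and 763 CPM, in a monocyte-like cluster of 292 cells led by Ccl7 and Ccl2, and Ctsd was at its lowest, 147 CPM, in the 271 nonclassical monocyte-like cells. Lgmn was at 73.1 CPM in the S100a8-high cluster and at 353 CPM in a macrophage-like cluster of 1146 cells led by Vegfa and Fosb. Outside the named classes, an unnamed cluster of 584 cells led by the natural killer genes Ncr1 and Gzma held Ctsd at 452 CPM. The unnamed clusters together held 1844 cells.

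**Figure D1:**
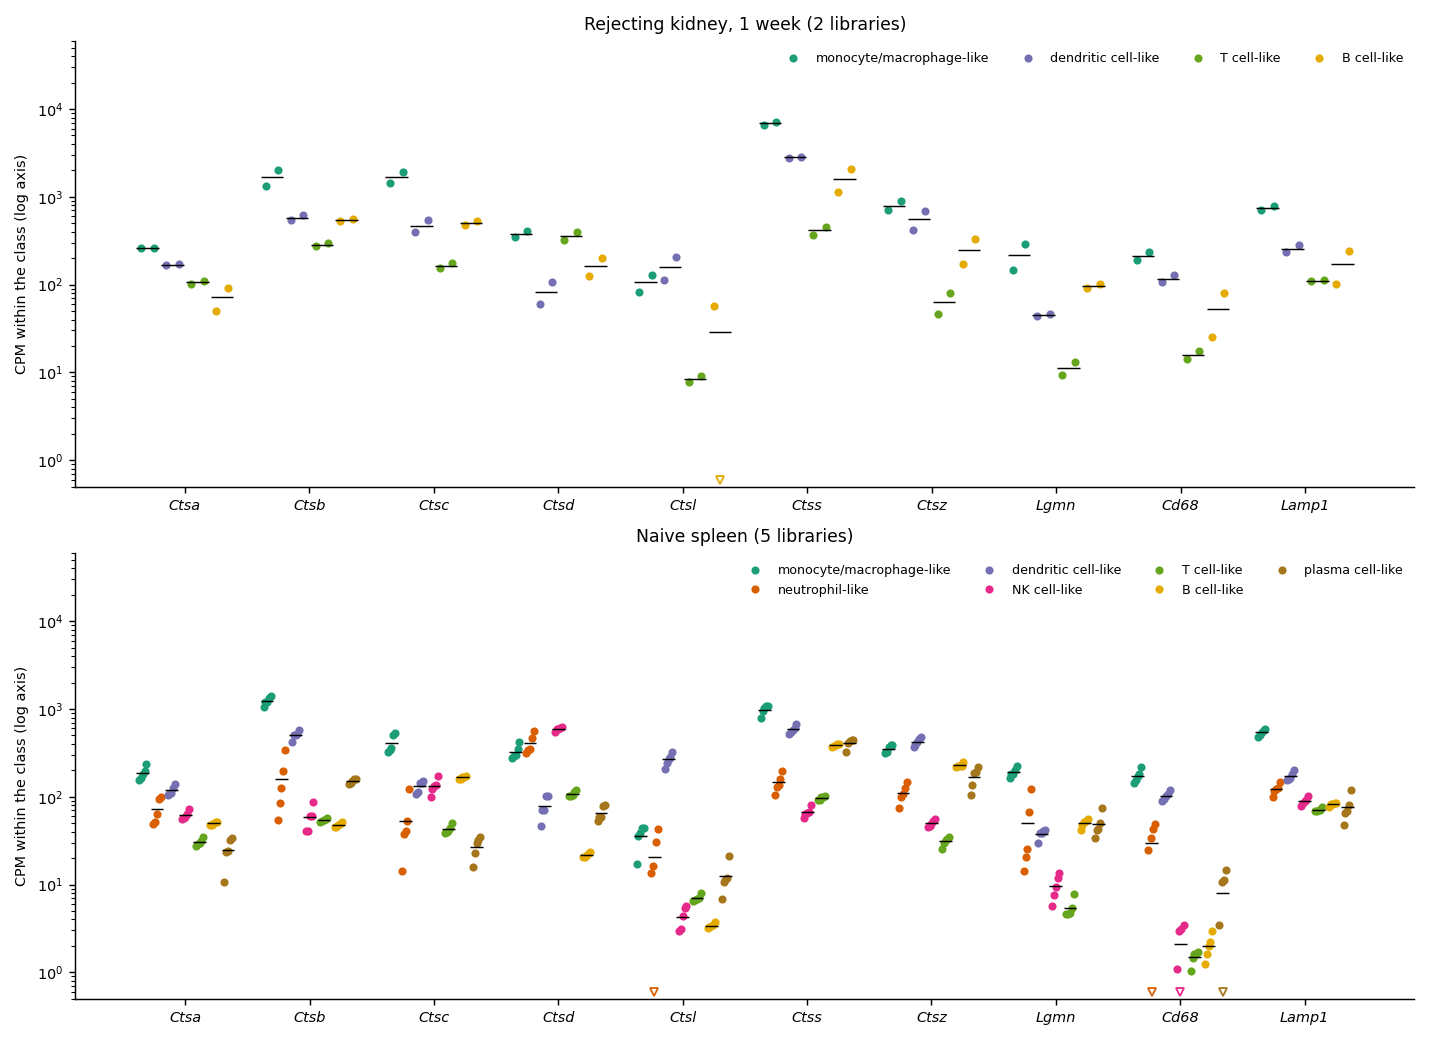
CPM (log axis) of each of the 10 members by cell class in the rejecting kidney (2 libraries) and the naive spleen (5 libraries). Points are libraries, bars the mean over libraries, and open triangles at the bottom mark a library with no UMI of that gene. Ctss reached 6846 ± 494 CPM in monocyte- and macrophage-like cells of the rejecting kidney, and Ctsd is the member whose T cell-like and myeloid levels overlap there.

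Among the named classes of naive spleen, the monocyte- and macrophage-like cells (1218 cells, 1.36 to 4.54% of each library) held the highest mean of 7 members, with Ctsd, Ctsl and Ctsz apart. The share of all genes that are highest in these cells was not counted. Ctsb was at 1068 to 1398 CPM in these cells over the 5 libraries and at 44.99 to 51.8 CPM in the 28296 B cell-like cells, with no overlap. Cd68 was at 145 to 217 against 1.26 to 2.93 in B cell-like cells. Ctsl was highest in dendritic cell-like cells, at 208.8 to 327.8 CPM against 17.1 to 44.6 in monocyte- and macrophage-like cells, and 140 plasmacytoid cells held it at 1000 CPM. Ctsz had its highest mean there too, at 369 to 477 CPM against 316 to 388, ranges that overlapped. Ctsd was highest in the 1428 natural killer cell-like cells at 541.9, 616.1, 588.7, 593.4 and 614.9 CPM, above every monocyte- and macrophage-like library (274.0 to 416.6), and its range in the 557 neutrophil-like cells, 315 to 565, overlapped both. B cell-like cells held little Ctsd (20.6 to 23.7 CPM) but more Ctss (366.6 to 404.5), Ctsz (219 to 252), Ctsc (160 to 174) and Lgmn (41.5 to 55.3) than T cell-like cells, where those genes were at 91.3 to 103, 25.7 to 35.1, 38.8 to 50.2 and 4.62 to 7.83 CPM. The class with the highest level thus differed from gene to gene within this tissue. A cluster of 125 red pulp macrophage-like cells held Ctsb at 3468, Ctsd at 1254 and Lgmn at 602 CPM over the 5 libraries together.

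To compare the share of cells with a UMI between cells of different depth, each cell was thinned to 1000 UMIs, and cells below that depth were left out (0 cells in the rejecting kidney, 93 monocyte- and macrophage-like and 25 T cell-like cells in naive spleen). In the rejecting kidney 98.2 to 98.3% of monocyte- and macrophage-like cells and 23.3 to 26.1% of T cell-like cells then held a Ctss UMI (99.5% and 40.0 to 45.3% without thinning). For Ctsd the shares were 23.7 to 28.9% and 25.6 to 34.0% (42.9 to 51.5% and 40.9 to 64.2% without thinning). The background was judged from Lyz2, a myeloid gene that T cells should lack: 10.75 and 18.03% of thinned T cell-like cells of the 2 rejecting libraries held a Lyz2 UMI (17.99 and 33.5% without thinning), at median depths of 1649 and 2919 UMIs against 2284 and 2343 in the myeloid cells. In naive spleen the same share was 0 to 0.845%, at median depths of 3201 to 4373 UMIs. In T cell-like cells of the rejecting kidney the mean shares of Ctsa, Ctsc, Ctsl, Ctsz, Lgmn, Cd68 and Lamp1, 0.80 to 12.5%, lay under the Lyz2 mean of 14.4%. These shares alone do not set expression apart from background. A share also depends on the level of the gene, so a share under that of Lyz2 does not show absence either.

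Set against the myeloid level of the same library, T cell-like cells of the rejecting kidney held Lyz2 at 3.62 and 5.18% of it. Ctsd stood at 91.3 and 96.0%, Ctsa at 39.2 and 42.3%, Ctsb at 13.6 and 22.6% and Lamp1 at 14.1 and 15.9%. Ctsc stood at 9.14 and 10.7%, Ctsl at 5.97 and 11.2%, Ctsz at 6.59 and 8.99%, Cd68 at 6.06 and 9.11%, Ctss at 5.16 and 7.04% and Lgmn at 4.52 and 6.37%. Each of the 10 lay above the Lyz2 value of its own library, Ctss and Lgmn by the least. In naive spleen the Lyz2 ratio averaged 0.0461%, and Ctsd averaged 34.0%, Ctsl 21.6%, Ctsa 16.6%, Lamp1 13.2% and Cd68 0.864%. Over the 10 members, the median log2 ratio of monocyte- and macrophage-like to lymphoid-like CPM (1 CPM added to each) was 3.25 ± 0.04 in rejecting kidney (SD, n = 2) and 2.33 ± 0.24 in naive spleen (SD, n = 5). The lymphoid-like cells were 2760 T and 106 B cell-like cells in rejecting kidney. In naive spleen they were 28296 B, 11098 T, 1428 natural killer and 99 plasma cell-like cells. The 2 ratios thus have unlike denominators, and tissue and lymphoid make-up cannot be told apart in them.

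**Figure D2:**
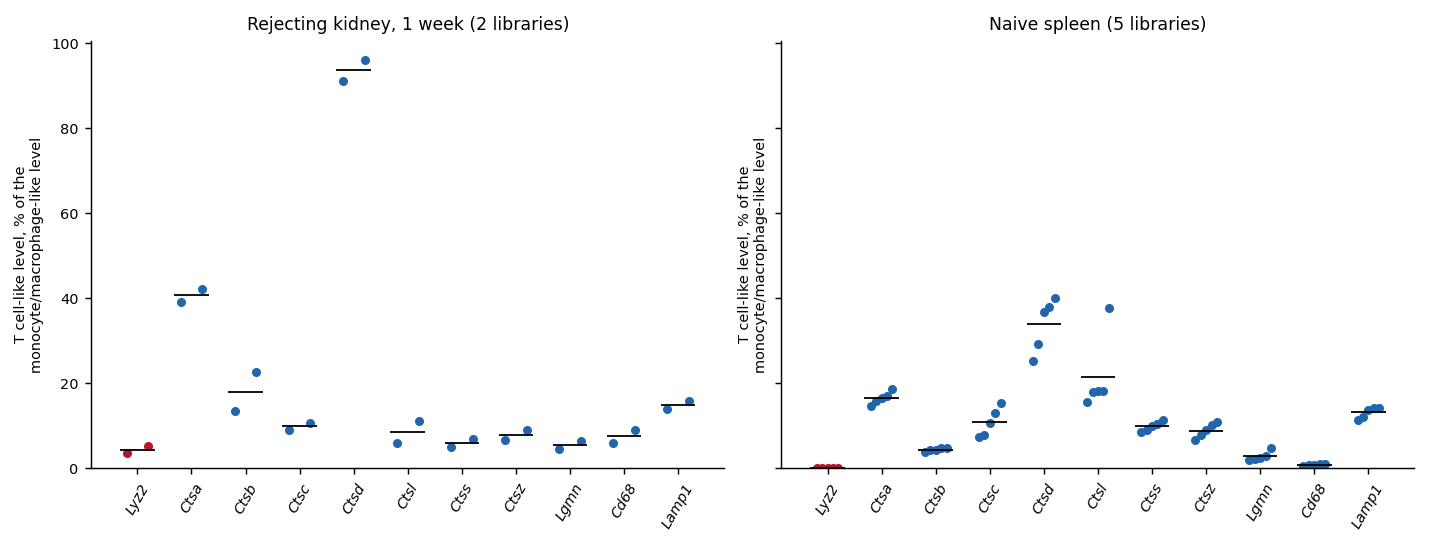
The level of each member in T cell-like cells as a percentage of its level in monocyte- and macrophage-like cells of the same library, for the rejecting kidney and the naive spleen. Points are libraries, and Lyz2 (red) shows the background of a gene that T cells should lack. In the rejecting kidney Ctsd stands at 91.3 and 96.0% and Lyz2 at 3.62 and 5.18%.

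Monocyte- and macrophage-like cells of the rejecting kidney were then compared with those of naive spleen over libraries, to ask which members differ beyond their class. The quasi-likelihood test of edgeR was run on all 10228 genes with enough counts, and a gene was called at a Benjamini-Hochberg adjusted p under 0.05. Of the 10 members, 7 were higher in the rejecting kidney, where 30.6% of all genes tested were called higher and 25.5% lower. Ctss led them, at 6497 and 7195 CPM against 949.1, 1069, 1094, 1022 and 793.7, a 6.97-fold difference (log2 2.80 ± 0.12 SE, adjusted p = 2.62e-09). Ctsc was 4.05-fold higher, with 1421 and 1936 CPM against 327 to 537 (log2 2.02 ± 0.20 SE, adjusted p = 2e-06). The ranges of both genes did not overlap. Ctsl (105.7 ± 34.3 against 36.0 ± 11.1 CPM) and Ctsz (793 ± 131 against 355 ± 34.9) were 2.81-fold and 2.24-fold higher. Lamp1 (log2 0.46), Ctsa (0.49) and Ctsb (0.43) were called at smaller differences. Without rejecting kidney library 2, the log2 difference was 0.40 for Lamp1 (adjusted p = 0.0785), 0.49 for Ctsa (adjusted p = 0.0721) and 0.09 for Ctsb (adjusted p = 0.68), and none of these 3 was called. Without library 3, Ctsa was not called (log2 0.48, adjusted p = 0.0772), and Lgmn was (log2 0.60, adjusted p = 0.0196). Each of these fits has 1 rejecting library, takes the spread from the naive libraries alone and assumes that the lone library varies as they do. Ctsa was not called without naive library 2 either (0.44, adjusted p = 0.0522), nor Ctsb without naive library 1, 3, 4 or 5 (0.38 to 0.46, adjusted p = 0.0514 to 0.0719) or when libraries were scaled to each other by the trimmed mean of M values (TMM, 0.41).

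Ctsd was at 379.9 ± 41.4 against 326.2 ± 57.8 CPM, Cd68 at 213 ± 28.2 against 174 ± 27.7 and Lgmn at 218 ± 101 against 192 ± 24.2, and these 3 did not pass. Different clusters held the class in each tissue: C1q-, Vegfa- and cell cycle-led macrophage-like and classical monocyte-like clusters in the rejecting kidney, and classical monocyte-like (583 cells) and red pulp macrophage-like (510 and 125 cells) clusters in naive spleen. Over classical monocyte-like and macrophage-like clusters alone, with red pulp cells left out, Ctsd (log2 1.41) and Lgmn (1.11) were called too, and Ctsa (0.14) and Lamp1 (0.24) were not. This setting holds 3403 macrophage-like and 3145 classical monocyte-like cells in the rejecting kidney. In naive spleen it holds the 583 classical monocyte-like cells alone, so the cell types differ there too. Tissue, transplantation, strain and myeloid cell type cannot be told apart in this comparison.

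In CD8 cells of accepted kidney, Ctsd rose most among the members between 1 and 3 weeks. Its values were 380.6, 335.2 and 296.6 CPM at 1 week and 626.5, 605.6, 621.0, 665.4 and 599.3 CPM at 3 weeks. Every 3-week library lay above every 1-week library, and the difference was 1.85-fold (log2 0.89 ± 0.09 SE, adjusted p = 4e-07). Thinned to 1000 UMIs, 27.6 ± 2.72% of cells held a Ctsd UMI at 1 week and 45.1 ± 1.51% at 3 weeks (57.4% and 72.4% without thinning). Ctsa (71.0 ± 11.5 to 107.8 ± 7.11 CPM), Ctsc (72.0 ± 1.62 to 113 ± 17.4) and Lamp1 (64.1 ± 5.22 to 94.5 ± 2.48) rose as well, with log2 differences of 0.61, 0.65 and 0.56. Ctsz, at 45.1, 41.1 and 48.0 CPM and then at 20.5 to 29.6 CPM, fell by 0.81 on the log2 scale, and Cd68, at 6.99 ± 0.977 and then 4.91 ± 0.472 CPM, fell by 0.52. The test called 53.5% of all 11693 genes higher at 3 weeks and 21.5% lower, and the median gene stood 0.41 log2 units higher, so 4 of 10 members higher and 2 lower is near or under the share of all genes. Relative to that median gene, Ctsd was at 0.48, Ctsc at 0.24, Ctsa at 0.20, Lamp1 at 0.15, Cd68 at -0.93 and Ctsz at -1.22. Ctsb (0.07), which became lower by 0.30 under TMM, Ctss (-0.04, and -0.42 and called lower under TMM), Ctsl (-0.21, and -0.58 and called lower under TMM) and Lgmn (-0.17) did not pass.

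Myeloid transcripts moved with this comparison, at a sum of 233 to 353 CPM over 12 genes at 1 week and 431 to 841 CPM at 3 weeks, all 12 above 0 in every library. Most of the move was that of the adaptor gene Fcer1g, which natural killer-like T cells also express (means of 141.3 and 493.0 CPM), while Lyz2 had means of 46.3 and 60.8 CPM. In cells with a CD8 UMI and with no Cd4, B cell or myeloid UMI, Fcer1g and the adaptor gene Tyrobp included, the log2 difference of Ctsd was 0.90, beside 0.89 over all cells. Leaving out every cell with a myeloid UMI other than those of the 2 adaptors, Ctsd was at 338.8 ± 41.8 and 623.7 ± 24.6 CPM. Cd68 without those cells was at 7.41 ± 1.11 and 4.17 ± 0.810 CPM.

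**Figure D3:**
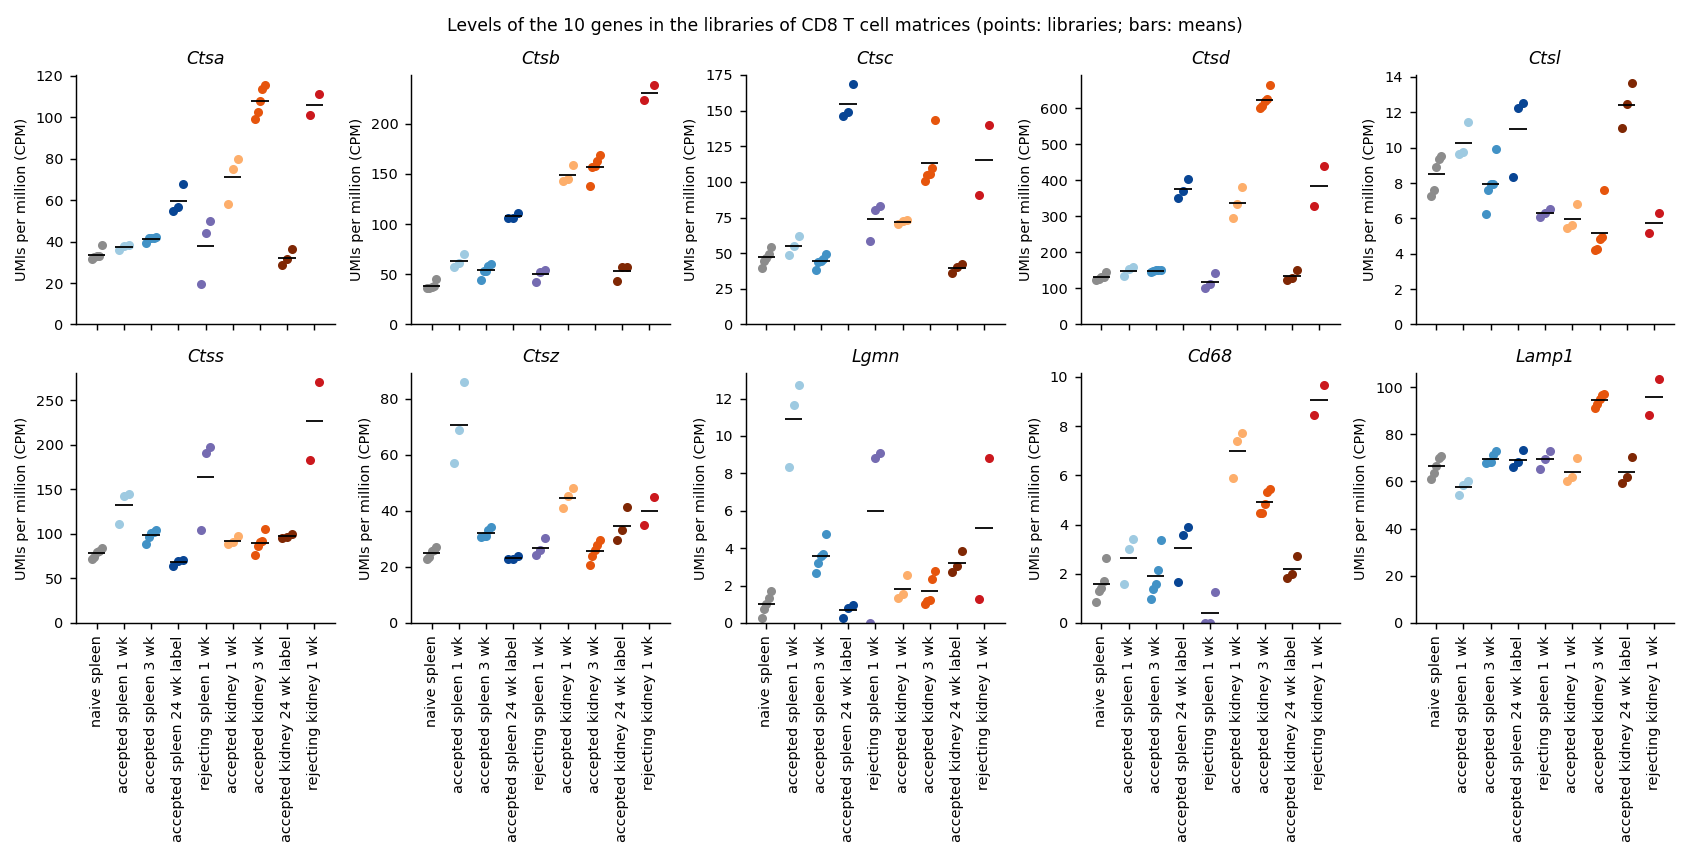
CPM of each member in every CD8 library of the 9 groups (linear axes from 0). Points are libraries and bars group means, and the 24-week groups are named as labelled. Ctsd peaks in accepted kidney at 3 weeks, where its 5 libraries lie between 599.3 and 665.4 CPM, and Lgmn peaks in recipient spleen at 1 week.

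Between 3 weeks and the libraries labelled 24-week kidney, 6 members fell and 3 rose, where 56.9% of all 11617 genes were called lower and 16.6% higher and the median gene stood 0.44 lower. Ctsd was at 129.0, 151.9 and 123.1 CPM in the libraries labelled 24-week kidney, below every 3-week library by 4.63-fold on average (log2 -2.21 ± 0.08 SE, adjusted p = 5.04e-12). Ctsa, Ctsb, Ctsc, Cd68 and Lamp1 were lower, at log2 values of -1.75, -1.58, -1.52, -1.17 and -0.57, and Lamp1 (-0.14) did not pass under TMM. Ctsl was the member that rose most, from 4.19 to 7.58 CPM at 3 weeks to 12.45, 11.09 and 13.66 CPM under the 24-week kidney label (2.42-fold, adjusted p = 1.53e-05). Ctsz (log2 0.44) and Lgmn (0.91) were called higher with overlapping ranges. Without 24-week kidney library 2 neither passed (Ctsz 0.29, adjusted p = 0.0755, and Lgmn 0.76, adjusted p = 0.109), and among cells with a CD8 UMI Lgmn was at -0.43. Ctss, at 76.5 to 105 CPM and then 95.1 to 99.5 CPM, did not pass (log2 0.11, and 0.53 and called higher under TMM). Transcripts of other cells moved with this comparison: the myeloid sum was 431 to 841 CPM at 3 weeks and 42.0 to 55.2 CPM under the 24-week kidney label, where 8 to 11 of the 12 genes were above 0, and the sum of 6 B cell genes was 14.1 to 35.6 and 97.8 to 261 CPM, all 6 above 0 in each library. In cells with a CD8 UMI and with no Cd4, B cell or myeloid UMI, Ctsd (-2.29), Ctsb (-1.74), Ctsa (-1.72), Ctsc (-1.38), Lamp1 (-0.50) and Ctsl (1.39) were still called. Cd68 (-0.94, adjusted p = 0.058) and Ctsz (0.20) were not, and Lgmn had too few counts to be tested. These directions rest on the 24-week kidney label. The libraries labelled 24-week spleen were not tested against 3-week kidney. Their mean was above that of 3-week kidney for Ctsc (154.5 against 113 CPM) and Ctsl (11.04 against 5.17). It was below for Ctsd (375.5 against 623.6 CPM), Lgmn (0.672 against 1.71), Ctsz (23.2 against 25.6, overlapping ranges), Ctsa, Ctsb, Ctss, Cd68 and Lamp1.

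The libraries labelled 24-week spleen held Ctsd at 403.5, 352.3 and 370.7 CPM, a range that overlapped that of accepted kidney at 1 week, and every one of them lay above every library labelled 24-week kidney. Of the members, 4 were lower in the libraries labelled kidney than in those labelled spleen at 24 weeks, Ctsc (log2 -1.97), Ctsd (-1.48), Ctsb (-1.04) and Ctsa (-0.91), where 36.7% of genes were called lower, 16.4% higher and the median gene stood at -0.17. Myeloid transcripts moved with these 4, at a sum of 42.0 to 55.2 CPM in the libraries labelled kidney and 157 to 200 CPM in those labelled spleen. Higher in those labelled kidney were Lgmn (3.22 ± 0.578 against 0.672 ± 0.349 CPM, log2 2.16), Ctsz (0.58) and Ctss (0.51). B cell transcripts moved with these 3, at a sum of 97.8 to 261 CPM over 6 genes in the libraries labelled 24-week kidney and 17.2 to 52.0 CPM in those labelled 24-week spleen, all 6 above 0 in each. Without the cells that held such a UMI, Ctss (0.45) and Ctsz (0.38) were still called, and Lgmn had too few counts to be tested. In cells with a CD8 UMI and with no Cd4, B cell or myeloid UMI, 5 members were called, in place of 7. The share of all genes called in those cells is not given here, so the count cannot be set beside it. Ctsc reached its highest mean of the 9 groups, 154.5 ± 12.3 CPM, under the 24-week spleen label.

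At 1 and 3 weeks Ctsa, Ctsb, Ctsc, Ctsd and Cd68 were called higher in kidney than in spleen, and Lgmn, Ctsl and Ctsz lower. At 24 weeks Ctsa, Ctsb, Ctsc and Ctsd were lower and Lgmn and Ctsz higher under the kidney label, a direction that turns if that of the labels is turned. At 1 week Ctsb was at 159.1, 144.5 and 143.0 CPM in kidney and 61.5, 70.3 and 57.2 CPM in spleen (2.37-fold, adjusted p = 4.4e-06), Ctsd was 2.26-fold higher and Cd68 2.66-fold higher, and Ctsa (log2 0.92) and Ctsc (0.39) passed as well. Lower in kidney were Lgmn (log2 -2.49), Ctsl (-0.80), Ctsz (-0.65) and Ctss (-0.52). The count of 5 higher and 4 lower stands beside 27.3% of all 11707 genes higher and 24.1% lower. Ctsc was not called without spleen library 1 (log2 0.30, adjusted p = 0.0599). At 3 weeks Ctsd was 4.18-fold higher in kidney, at 599.3 to 665.4 CPM against 144.3 to 152.1 CPM, with no overlap (log2 2.06 ± 0.05 SE, adjusted p = 2.77e-16). Ctsb (log2 1.55), Ctsa (1.38), Ctsc (1.35), Cd68 (1.34) and Lamp1 (0.44) were higher too, and Lgmn (-1.07), Ctsl (-0.63) and Ctsz (-0.32) lower, beside 47.3% of genes higher, 20.2% lower and a median gene at 0.22. Ctss (-0.13) did not pass with plain totals, but did under TMM (-0.34), by DESeq2 (-0.33) and without kidney library 2 (-0.19, adjusted p = 0.0318). Myeloid transcripts moved with this comparison, at a sum of 431 to 841 CPM in kidney and 55.8 to 83.3 CPM in spleen, with 9 to 12 of the 12 genes above 0 in spleen. In cells with a CD8 UMI and with no Cd4, B cell or myeloid UMI, Ctsd (2.05), Ctsb (1.73), Ctsa (1.36), Ctsc (1.10) and Lamp1 (0.61) were still called higher in kidney at 3 weeks and Ctsl (-0.95) lower, Ctsz (-0.22) was not called, and Cd68 and Lgmn had too few counts to be tested.

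The lower values of Lgmn, Ctsz and Ctss in kidney went with B cell transcripts in the spleen matrices. Their sum over 6 genes was 545 to 1115 CPM in recipient spleen at 1 week, 139 to 356 CPM at 3 weeks, 31.4 to 65.6 CPM in naive spleen and 9.35 to 10.1 CPM in accepted kidney at 1 week, with all 6 genes above 0 in each spleen library. Without the cells that held such a UMI, the kidney minus spleen difference at 1 week was 0.04 for Ctsz, -0.08 for Ctss and -1.08 for Lgmn, and of these only Lgmn passed. With cells limited further, to those with a CD8 UMI and with no Cd4, B cell or myeloid UMI, Ctsz was at 0.17, Ctss at 0.01 and Lgmn had too few counts to be tested, while Ctsb (1.63), Cd68 (1.33), Ctsa (1.03), Ctsd (0.93) and Ctsc (0.51) were still called higher and Ctsl (-1.14) lower.

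Whether the kidney minus spleen difference itself changed was tested in a fit of all 9 CD8 groups (12503 genes). From 1 to 3 weeks its signed value rose for 6 members. For Ctsc (by 0.96), Ctsd (0.88), Ctsa (0.46) and Lamp1 (0.29) the kidney excess became larger, and for Lgmn (1.44) and Ctss (0.39) the lower value in kidney moved towards 0, where 26.8% of genes were called so and 9.62% the other way. Scaled by TMM, the calls of Ctsc, Ctsd and Lgmn held, and in the cells limited by all 4 kinds of UMI those of Ctsc (0.60) and Ctsd (1.12). From 3 weeks to the 24-week labels all 10 members were called, with Ctsd at -3.54, Ctsc at -3.32, Ctsb at -2.58, Ctsa at -2.29, Cd68 at -1.82 and Lamp1 at -0.56 and with Lgmn at 3.24, Ctsz at 0.90, Ctsl at 0.79 and Ctss at 0.63, beside 42.9% of genes called negative and 20.3% positive. Lamp1 was not called under TMM (-0.18, adjusted p = 0.133), and Lgmn was called neither in cells with a CD8 UMI (0.64, adjusted p = 0.539) nor in the cells limited by all 4 kinds of UMI (-1.52, adjusted p = 0.248). These sizes rest on the direction of the 24-week labels. With the sign of the 24-week difference turned, a description added after seeing the data and not tested, the change from 3 weeks would be -0.58 for Ctsd, -0.51 for Ctsb, -0.48 for Ctsa, -0.86 for Cd68, -0.32 for Lamp1 and 0.48 for Ctsl, and would have the other sign for Ctsc (0.63), Lgmn (-1.1), Ctss (-0.38) and Ctsz (-0.26).

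In recipient spleen, Lgmn was the member farthest from naive spleen. It was at 11.68, 12.73 and 8.35 CPM at 1 week against 1.69, 0.278, 0.719, 1.01 and 1.31 CPM in naive spleen, a 10.4-fold difference with no overlap (log2 3.37 ± 0.28 SE, adjusted p = 5.01e-08). Ctsz (log2 1.48), Ctss (0.76) and Ctsb (0.70) were higher and Lamp1 lower by 0.20, where 25.0% of all 10348 genes were called higher, 35.2% lower and the median gene stood at -0.12. Lamp1 was not called without spleen library 2 or 3 or naive library 3 or 5 (log2 -0.22 to -0.16, adjusted p = 0.0513 to 0.0948), nor under TMM (-0.10). Without spleen library 1, Ctsc (0.31, adjusted p = 0.0154), Ctsd (0.25, adjusted p = 0.0143) and Cd68 (0.99, adjusted p = 0.0198) were called higher as well, as were Ctsc and Ctsd without naive library 5 (0.28 and 0.22) and Ctsa without naive library 3 (0.20). Cells without a B cell UMI gave 3.98 CPM for Lgmn, 43.6 CPM for Ctsz and 97.8 CPM for Ctss in spleen at 1 week, in place of 10.9, 70.5 and 133 CPM, and all 3 were still called higher than naive spleen (log2 2.22, 0.80 and 0.31). Myeloid transcripts moved with this comparison too, at a sum of 109 to 160 CPM at 1 week and 20.9 to 35.9 CPM in naive spleen. In cells with a CD8 UMI and with no Cd4, B cell or myeloid UMI, 6 members were called at 1 week. Which members these were, and the share of all genes called in those cells, is not given here. The count therefore says nothing on Lgmn. At 3 weeks Lgmn was still 3.4-fold above naive spleen, at 3.57 ± 0.775 CPM, and 6 members were called higher, Lgmn (log2 1.76), Ctsb (0.48), Ctsz (0.34), Ctss (0.33), Ctsa (0.29) and Ctsd (0.18), beside 14.8% of all 9848 genes higher and 7.66% lower. The call of Ctsd was lost without any 1 of 8 of the 10 libraries (recipient spleen libraries 2 to 5 and naive libraries 1 to 4, adjusted p = 0.0521 to 0.0964). With cells limited to those with a CD8 UMI and with no Cd4, B cell or myeloid UMI, edgeR called 0 members at 3 weeks and 4 passed at an unadjusted p under 0.05, while DESeq2 called 3 over all cells. Cd68 had too few counts to be tested there.

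In rejecting kidney at 1 week, Ctss was the called member with the largest difference from accepted kidney. It was at 270.1 and 182.7 CPM against 97.5, 88.3 and 91.3 CPM, 2.45-fold higher with no overlap (log2 1.29 ± 0.19 SE, adjusted p = 0.000523), and 0.60 above the median gene, which itself stood 0.70 higher. Ctsc (log2 0.68), Ctsb (0.64), Ctsa (0.58) and Lamp1 (0.58) were called higher with plain library totals, but relative to the median gene they stood at -0.02, -0.06, -0.12 and -0.12, and under TMM all 4 turned to values below 0 that did not pass. The test called 48.9% of all 12533 genes higher and 10.5% lower. Ctsd, at 327.7 and 440.0 CPM against 296.6 to 380.6, and Ctsz, at 34.9 and 44.8 against 41.1 to 48.0, did not pass with plain totals. Under TMM, Ctsz (-0.85) and Ctsl (-0.74) were called lower and Ctss (0.61) higher. The call of Ctsa was lost without rejecting library 2 (0.51, adjusted p = 0.0515), accepted library 2 (0.62, adjusted p = 0.0557) or accepted library 3 (0.45, adjusted p = 0.0862), that of Lamp1 without the same 3 libraries (0.46, 0.56 and 0.54, adjusted p = 0.0518, 0.0558 and 0.0575), and that of Ctsc without rejecting library 2 (0.34, adjusted p = 0.132) or any of the 3 accepted libraries (0.66 to 0.69). Lgmn, at 8.83 and 1.30 CPM in the 2 rejecting libraries, had a larger fitted difference (log2 1.34) that did not pass (adjusted p = 0.111), but was called when rejecting library 3 was left out (2.22, adjusted p = 0.00153), with no low-count filter (adjusted p = 0.0344) and in the fit of all 9 groups (1.31, adjusted p = 0.0209). A fit without 1 of the 2 rejecting libraries takes the spread from the accepted libraries alone and assumes that the lone library varies as they do.
The summed myeloid transcripts were at 380 and 602 CPM in rejecting kidney, all 12 genes above 0, and their part in the level of Ctss was not tested beyond the cells without them: with cells limited to those with a CD8 UMI and with no Cd4, B cell or myeloid UMI, Ctss was still called higher (log2 1.13).

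Between rejecting kidney and rejecting spleen, 3 members were called, all higher in kidney. Ctsb was at 239.0 and 223.2 CPM against 42.8, 52.2 and 54.4 CPM (4.70-fold, adjusted p = 0.000103), Ctsd at 327.7 and 440.0 against 112.0, 143.5 and 101.3 (3.34-fold, adjusted p = 0.000581) and Ctsa at 111 and 101 against 44.1, 19.6 and 49.9 (2.50-fold, adjusted p = 0.00991). None of these ranges overlapped, and 10.8% of all 8205 genes were called higher and 5.34% lower. Transcripts of other cells moved with this comparison. The myeloid sum was 380 and 602 CPM in kidney and 70.5 to 181 CPM in spleen, with 6 to 9 of the 12 genes above 0 in spleen. The B cell sum was 5.52 and 10.5 CPM in kidney and 124 to 456 CPM in spleen. In cells with a CD8 UMI and with no Cd4, B cell or myeloid UMI, 3 members were called. Their names and the share of all genes called in those cells are not given here. Ctsa was not called without spleen library 1 (1.38, adjusted p = 0.0683). Lgmn, Cd68 and Ctsl were not tested for low counts. Lgmn was at 0 in spleen library 2 and Cd68 at 0 in spleen libraries 2 and 3, counts that allow up to 19.6 CPM in library 2 and 4.54 CPM in library 3. These limits cover counting error only. The signed kidney minus spleen difference was larger in rejection than in acceptance for Ctsz (by 1.21), Ctsb (1.00), Ctss (0.85) and Ctsd (0.60), beside 6.31% of genes called so and 1.93% the other way. For Ctsz and Ctss it did not pass in rejection (0.56 and 0.40), and in acceptance kidney was lower (-0.65 and -0.52). As given above, those 2 acceptance values did not pass without the cells that held a B cell UMI. The B cell sum was 545 to 1115 CPM in the accepted recipients' spleen at 1 week. Under TMM the calls of Ctsb and Ctsz held, and those of Ctsd (0.40, adjusted p = 0.141) and Ctss (0.66, adjusted p = 0.0524) did not. In the cells limited by all 4 kinds of UMI the call of Ctsd held (0.99), and those of Ctsb (0.83, adjusted p = 0.0814), Ctsz (0.92, adjusted p = 0.198) and Ctss (0.61, adjusted p = 0.222) did not.

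**Figure D4:**
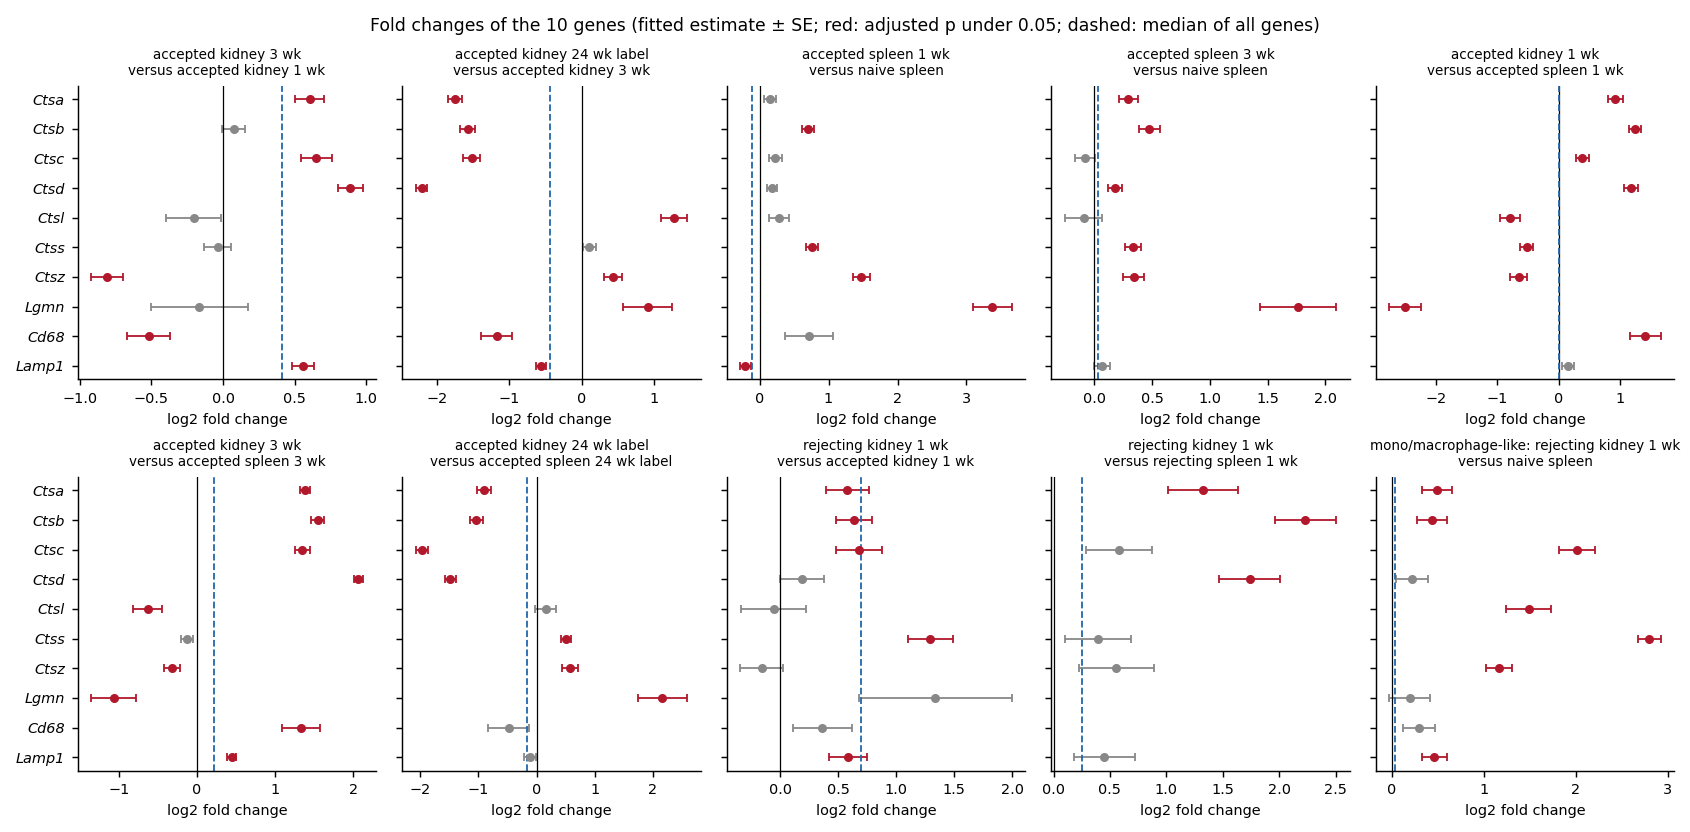
Log2 fold change of each member in the 10 comparisons, with bars of 1 standard error and called values in red. The dashed blue lines mark the median of all genes in each comparison. Ctsd runs from -2.21 (libraries labelled 24-week kidney against 3-week kidney) to 2.06 (kidney against spleen at 3 weeks).

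Ordered over the 9 CD8 groups, Ctsd was highest in accepted kidney at 3 weeks, where its range overlapped that of no other group. Ctsb was highest in rejecting kidney at 231.1 ± 11.1 CPM, above accepted kidney at 3 weeks (156.8 ± 11.7), whose range overlapped that at 1 week (148.9 ± 8.91), and lowest in naive spleen at 38.6 ± 3.75, a range that overlapped that of rejecting spleen. Ctsa had overlapping ranges in its 2 highest groups, accepted kidney at 3 weeks (107.8 ± 7.11) and rejecting kidney (106.0 ± 7.18). Summed over the 10 members, the median library was at 1221 CPM in accepted kidney at 3 weeks and 1218 in rejecting kidney. It was at 851 under the 24-week spleen label, 833 in accepted kidney at 1 week and 437 in naive spleen, and the other groups lay between 461 and 585. For comparison, the sum was 12904 CPM in monocyte- and macrophage-like cells of the rejecting kidney. Ctsd, at a mean of 623.6 CPM, was the largest part of the sum in accepted kidney at 3 weeks. These orders use plain library totals. With those, the median gene stood 0.70 log2 units higher in rejecting than in accepted kidney at 1 week, and under TMM neither Ctsb nor Ctsa was higher there.

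Over the 5461 genes whose mean level reached 20 CPM, those whose level followed Ctsd most closely over the 32 CD8 libraries were Ctsw (Pearson r 0.968), Cers4 (0.965) and Nkg7 (0.963). Ctsw encodes a cathepsin of cytotoxic lymphocytes and Nkg7 a granule membrane protein. For Ctss they were Chmp3 (0.860), Drg1 (0.849) and 1110059E24Rik (0.848). These are descriptions over libraries that share 9 groups.

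The other genes of the lysosome were taken from 7 lists that hold 80 genes. From 1 to 3 weeks in accepted kidney, 47 of the 71 tested rose and 5 fell, beside 53.5% of all genes higher and 21.5% lower, with a list median of 0.58 beside 0.41 for all genes. Membrane proteins and channels rose in 10 of 11 cases (median 0.82), led by Cln3, a lysosomal membrane protein (11.6 to 39.0 CPM, log2 1.76), and acid hydrolases in 21 of 29 (median 0.61). The subunits of the proton pump that acidifies the lysosome rose in 5 of 14 and fell in 2, with a median of 0.05 that lay below that of all genes. Gm2a, a glycolipid-binding activator (54.7 to 27.6 CPM), fell by 0.99 on the log2 scale. Under the 24-week kidney label 57 of 71 were lower than at 3 weeks and 6 higher, beside 56.9% and 16.6% of all genes, led by Ctsw (759.7 to 133.3 CPM, log2 -2.51) and the progranulin gene Grn (20.7 to 3.98 CPM, log2 -2.40), with the acid phosphatase Acp5 (log2 1.36) and Gm2a (1.07) in the other direction. These counts rest on the 24-week labels, and none was made with the labels turned. The libraries labelled 24-week spleen held Ctsw at 574 CPM, Acp5 at 49.7 (55.3 in kidney at 3 weeks) and Gm2a at 18.1.

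Between kidney and spleen at 1 week, 21 of 71 were higher in kidney and 10 lower (27.3% and 24.1% of all genes, list median 0.10), with Ctsw (log2 1.62) and the sulfatase Arsb (1.61) at the upper end and Ctsh (-3.19) and Acp5 (-1.27) at the lower. The B cell sum was 9.35 to 10.1 CPM in kidney and 545 to 1115 CPM in spleen. Its part in the difference of Ctsh was not tested. At 3 weeks 51 of 69 were higher and 8 lower, beside 47.3% and 20.2% of all genes, with a list median of 0.59 beside 0.22 for all genes, and 13 of the 14 proton pump subunits tested were higher. Ctsw (2.43) and Grn (2.31) led the rise, and Acp5 (-1.34) and Gm2a (-1.01) were lower. Under the 24-week labels 34 of 68 were lower in the libraries labelled kidney and 7 higher, beside 36.7% and 16.4% of all genes, with Ctsw at -2.11, the cystatin Cst7 at -1.95, Gm2a at 1.68 and Acp5 at 1.52.

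In recipient spleen against naive spleen, 24 of 68 were higher and 13 lower at 1 week, beside 25.0% and 35.2% of all genes (list median 0.00 beside -0.12). Ctsh, a cysteine aminopeptidase, was at 38.3 CPM against 1.96 CPM (log2 4.23) and the cystatin Cst3 at 106 against 58.7 (log2 0.85), while Npc1 (-0.71) and Man2b1 (-0.58) were lower. B cell transcripts moved with this comparison, at a sum of 545 to 1115 CPM against 31.4 to 65.6 CPM, and their part in the difference of Ctsh was not tested. At 3 weeks 9 of 67 were higher and 4 lower, near or under the 14.8% and 7.66% of all genes, among them Atp6v1e1 (0.30), Atp6ap1 (0.30), Cst7 (-0.38) and Atp6v0e (-0.29).

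In rejecting against accepted kidney 31 of 74 were higher and 6 lower, under the 48.9% and 10.5% of all genes, with a list median of 0.47 under the 0.70 of all genes. Ctse, an aspartic protease, was at 105 CPM against 3.71 CPM (log2 4.85) and the transcription factor Tfeb at 32.8 against 6.95 (log2 2.24), and the pump subunits Atp6v1f (-1.15) and Atp6v0e (-1.06) were lower. Myeloid transcripts moved with this comparison, at a sum of 380 and 602 CPM against 233 to 353 CPM. Their part in the differences of these genes was not tested, and recipient strain and outcome cannot be told apart. The listed genes were tested with plain totals over all cells only. In rejecting kidney against rejecting spleen 6 of 58 were higher, near the 10.8% of all genes, and 1, Acp5 (-1.95), was lower, where 5.34% of all genes were, led by Arsb (2.60) and Gnptab (2.37), which makes the mannose 6-phosphate tag that sorts lysosomal enzymes. In monocyte- and macrophage-like cells of the rejecting kidney against naive spleen 30 of 74 were higher and 12 lower, beside 30.6% and 25.5% of all genes (list median 0.27 beside 0.04), with the transcription factor Mitf (log2 4.13) and Ctse (3.69) at the upper end and Acp5 (-1.73) and Ctso (-1.46) at the lower.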

How the data were processed

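The authors deposited raw UMI counts per gene and cell, made with Cell Ranger on mm10 per the submitters' processing notes (versions not given in the sources used here). Matrices of 11 of the 16 samples were used. The other 5 samples were not analysed here. The matrices list different numbers of genes (17517 to 32285), and a test covers the genes that both of its matrices list.

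Counts were summed per library tag and divided by the library's total (CPM). Tests were edgeR 4.0.16 quasi-likelihood fits (R 4.3.3) on the 2 groups compared, with plain library totals, the tool's low-count filter and Benjamini-Hochberg adjustment over all genes tested (threshold 0.05). Differences between contrasts came from 1 fit of the 9 CD8 groups. Alternatives were TMM factors, DESeq2 1.42.0, no low-count filter, libraries left out in turn, cells limited by CD8, Cd4, B cell or myeloid UMIs, other cluster resolutions (0.4, 1.5) and other thinning (none, 500 UMIs). The cell limits other than the full one, the replicate block and the alternatives for the differences were added after seeing the data.

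All-cell matrices were clustered in scanpy 1.11.5 (log of counts per 10000, 2000 variable genes without the lysosomal genes, 30 components, 15 neighbours) with leidenalg 0.10.2 at 0.8, and named from marker lists by a rule that was changed 3 times after names were seen. Scrublet marked 2.36 to 3.13% of cells as doublets in 4 naive libraries and at most 0.0186% in the other 3 all-cell libraries, where it did not work, so doublets were kept in the main analysis. The members and gene lists were chosen with earlier results of these data known. Lysosomal genes named beside the members were the 2 largest rises and 2 largest falls among those called with a mean of at least 20 CPM, and some of these are not reported here.

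On simulated counts, the test of rejecting against accepted kidney recovered 49% of 100 genes changed 2-fold and 11% of 100 changed 1.5-fold (11968 genes), that of rejecting kidney against spleen 15 and 0% (8155 genes), that of kidney at 3 against 1 week 100 and 86% (11560 genes) and that of the myeloid class 73 and 13% (9889 genes). These counts were drawn with 1 spread between libraries common to all genes, while the tests fit a spread per gene. The shares recovered need not hold for a given member. Intervals and limits for counts of 0 (3 counts per library) cover counting error only.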

Additional observations from a re-analysis of the deposited data

Results flagged for a closer look

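Of 110 sets of 5 libraries, 7 held a member value far from the other 4 by Dixon's test, where chance alone gives about 5%. In CD8 cells these were Ctsc in library 1 of accepted kidney at 3 weeks (143.4 CPM, others 100.6 to 110.1), Ctsl in library 2 of that group (7.58 CPM, others 4.19 to 4.92), Ctsa in library 1 of recipient spleen at 3 weeks (39.2 CPM, others 41.6 to 42.0) and Ctsa in naive library 3 (38.3 CPM, others 31.4 to 33.1). In the all-cell naive spleen they were Ctsz in B cell-like cells of library 5 (252.1 CPM, others 219.2 to 224.6), Lgmn in T cell-like cells of library 3 (7.83 CPM from 69 UMIs, others 4.62 to 5.41) and Lgmn in dendritic cell-like cells of library 5 (30.1 CPM from 26 UMIs, others 38.2 to 41.3).

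The kidney minus spleen log2 difference of 6 members differed between 3 weeks and 1 week by edgeR's test of the difference itself: Ctsa (0.46), Ctsc (0.96), Ctsd (0.88), Ctss (0.39), Lgmn (1.44) and Lamp1 (0.29). In cells limited to those with a CD8 UMI and with no Cd4, B cell or myeloid UMI, Ctsc and Ctsd were still called.

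Between the 24-week labels and 3 weeks it differed for all 10: Ctsa (-2.29), Ctsb (-2.58), Ctsc (-3.32), Ctsd (-3.54), Ctsl (0.79), Ctss (0.63), Ctsz (0.90), Lgmn (3.24), Cd68 (-1.82) and Lamp1 (-0.56). These rest on libraries whose kidney parenchyma and CD8 transcripts went against their tissue labels, and the direction is that of the labels. With the sign of the 24-week difference turned, Ctsd would be at -0.58, Ctsb at -0.51 and Ctsa at -0.48, and Ctsc (0.63), Lgmn (-1.1), Ctss (-0.38) and Ctsz (-0.26) would change sign (not tested). Lamp1 was not called under TMM (-0.18), and Lgmn was called neither in cells with a CD8 UMI (0.64) nor in the limited cells (-1.52).

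Between rejection and acceptance at 1 week it differed for Ctsb (1.00), Ctsd (0.60), Ctss (0.85) and Ctsz (1.21). The calls of Ctsb and Ctsz held under TMM and that of Ctsd in the limited cells (0.99), where Ctsb (0.83), Ctss (0.61) and Ctsz (0.92) did not pass. Recipient strain and outcome cannot be told apart there.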

How the results depend on the processing

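Of 66 member results called, 7 reversed under some alternative, 58 kept direction and call under TMM, 53 under DESeq2 and 54 whichever library was left out. For recipient spleen against naive spleen at 1 week, 5 members were called, 8 under TMM and 9 in cells with a CD8 UMI. At 3 weeks 6 were called, 3 by DESeq2, 3 in cells with a CD8 UMI, 2 without cells with a B cell UMI, 0 in cells with a CD8 UMI and no Cd4, B cell or myeloid UMI (edgeR, with 4 at an unadjusted p under 0.05) and 1 when the adaptors Tyrobp and Fcer1g did not remove a cell. For rejecting against accepted kidney 5 were called, 3 under TMM and 3 by DESeq2, and for rejecting kidney against rejecting spleen 3, or 6 in the fit of all 9 groups. The myeloid to lymphoid ratio in rejecting kidney was 3.42 with the lysosomal genes kept for clustering. With each library left out, the counts ran from 4 to 8 (spleen at 1 week), 2 to 6 (rejecting against accepted kidney), 2 to 4 (rejecting kidney against spleen) and 4 to 7 (myeloid class). The cause of these changes was not tested.

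Reversed values in accepted kidney were Ctsb from 1 to 3 weeks, -0.30 under TMM and -0.31 by DESeq2 (0.05 to 0.13 with libraries left out), and Lgmn under the 24-week kidney label, -0.43 in cells with a CD8 UMI (0.76 to 1.14). For kidney against spleen at 1 week they were Ctss at 0.011 (-0.63 to -0.46) and Ctsz at 0.17 in the cells limited by all 4 kinds of UMI, 0.13 with the adaptors not counted and 0.039 without B cell UMIs (-0.79 to -0.49). For rejecting against accepted kidney, TMM and DESeq2 gave Ctsa -0.11 and -0.13 (0.45 to 0.67), Ctsb -0.051 and -0.069 (0.59 to 0.69), Ctsc -0.012 and -0.031 (0.34 to 0.96) and Lamp1 -0.11 and -0.12 (0.46 to 0.69), and DESeq2 gave Ctsd -0.52 (-0.04 to 0.39). The changes of the kidney minus spleen difference of Lgmn in the limited cells were -0.53 (3 weeks minus 1 week) and -1.52 (24-week labels minus 3 weeks).

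TMM moved the share of calls that were higher from 71.3 to 49.7% (kidney, 3 weeks against 1), 22.6 to 48.4% (24-week label against 3 weeks), 70.0 to 51.4% (kidney against spleen at 3 weeks), 31.0 to 48.4% (24-week labels), 82.4 to 51.7% (rejecting against accepted kidney), 66.9 to 49.2% (rejecting kidney against spleen) and 65.8 to 53.1% (spleen at 3 weeks). Thinned shares moved without thinning in 204 of 210 cases and at 500 UMIs in 167.

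Whether library numbers shared by kidney and spleen mark pairs was not settled, and the main tests are unpaired. Same-numbered correlations were 0.28, 0.08 and 0.33 at 1 week, 0.48, 0.14, 0.17, 0.16 and 0.05 at 3 weeks, 0.02, 0.11 and 0.26 at 24 weeks and -0.03 and -0.04 in rejection. Most kidney libraries of the accepted groups correlated best with the spleen library of their own number, some did not, and none did in rejection. A fit with the number as a replicate block changed no member call (9, 9, 7 and 3 members), and called 6379, 7743, 5517 and 1114 genes. The main fits, which use all libraries, called 6016, 7391, 5512 and 1325 genes.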
